A study of Mus musculus with 72 samples.

Results

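The 7 genes Tfrc, Slc11a2, Slc40a1, Fth1, Ftl1, Ireb2 and Aco1 were followed through the fractions of mouse embryonic stem cells after metabolic labeling of new RNA. They were chosen by symbol, and make up 7 of the 51826 genes with read counts. Cells of the line E14TG2a, derived from mouse embryos, were given 4-thiouridine (4sU), a uridine analog that is built into newly made RNA. Once alkylated it is sequenced as C, and new molecules are recognized by these T2C conversions. Each culture was divided into nucleus, cytosol, membrane and whole cell, and 72 libraries of poly(A)-selected RNA, 18 per fraction, came from 6 independently passaged replicates. All cells had the same genotype and received 4sU, and libraries without 4sU were not used here. Labeling lasted 15, 20 and 30 min in replicates 1 and 2, 20, 40, 60 and 120 min in replicates 3 and 4, and 60 and 120 min in replicates 5 and 6.

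The labels give 500 µM 4sU up to 40 min and 100 µM after 60 and 120 min. The study's methods give 500 µM for some 60 min cultures and 100 µM for others, so no comparison of doses was made. After 60 min the authors' conversion rate of T to C in new RNA differed between cytosolic libraries. It was 5.83 and 7.57% in replicates 3 and 4, against 2.38 and 2.58% in replicates 5 and 6. The median shares of new RNA over genes were 9.24 and 9.29%, against 20.6 and 18.1%. Means after 60 min below pool these replicates. The 120 min libraries of replicates 3 and 4 are not among the data the study analysed, and the 64 other libraries, 16 per fraction, were used. Time, dose and replicate pair change together over most of the series and cannot be told apart.

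Cells take up iron that is bound to transferrin through the transferrin receptor, encoded by Tfrc, and move it out of endosomes through the divalent metal transporter encoded by Slc11a2. Ferritin, a shell built of the heavy chain Fth1 and the light chain Ftl1, stores iron, and ferroportin, encoded by Slc40a1, exports it. The iron regulatory proteins encoded by Aco1 (IRP1, which doubles as the cytosolic aconitase) and Ireb2 (IRP2) bind hairpins named iron-responsive elements. Bound in the 5′ untranslated region (UTR) of ferritin and ferroportin mRNA they block translation, and bound in the 3′ UTR of Tfrc mRNA they protect it from decay.

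The element is a hairpin with an unpaired C, a stem of 5 pairs and a loop of 6 bases. In GRCm38 the genes span chr16:32608920-32632794 (Tfrc, plus strand), chr15:100387898-100425072 (Slc11a2, minus), chr1:45908068-45926523 (Slc40a1, minus), chr19:9980598-9985098 (Fth1, plus), chr7:45457944-45459884 (Ftl1, minus), chr9:54863789-54912530 (Ireb2, plus) and chr4:40143081-40198338 (Aco1, plus). To show where the members carry the element, transcripts of the GENCODE M21 annotation (GRCm38) were searched on their own strand for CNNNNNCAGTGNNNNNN with all 5 stem pairs formed, G-T pairs included. These letters were found once each in the 5′ UTR of Fth1, Ftl1 and Slc40a1 and 4 times in the 3′ UTR of Tfrc. Of all protein-coding genes with a 5′ UTR of at least 27 bases, 0.153% (31 of 20217) held a match there, and 0.618% (129 of 20874) held one in the 3′ UTR. No match was found in UTRs of Slc11a2, Ireb2 or Aco1, which says only that these letters with this pairing are not there. The 7 matches are shown over 27 bases, 5′ to 3′, with the loop in capitals:
Fth1, 5′ UTR, exon 1, chr19:9982733-9982759, plus strand: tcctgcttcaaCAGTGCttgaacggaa
Ftl1, 5′ UTR, exon 1, chr7:45459780-45459806, minus strand: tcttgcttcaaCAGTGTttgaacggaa
Slc40a1, 5′ UTR, exon 1, chr1:45925466-45925492, minus strand: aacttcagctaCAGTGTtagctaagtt
Tfrc, 3′ UTR, 884 bases after the stop codon, chr16:32631220-32631246, plus strand: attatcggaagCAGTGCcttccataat
Tfrc, 3′ UTR, 1263 bases after the stop codon, chr16:32631599-32631625, plus strand: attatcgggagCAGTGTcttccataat
Tfrc, 3′ UTR, 1328 bases after the stop codon, chr16:32631664-32631690, plus strand: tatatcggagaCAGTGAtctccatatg
Tfrc, 3′ UTR, 1375 bases after the stop codon, chr16:32631711-32631737, plus strand: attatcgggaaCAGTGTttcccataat
The 4 Tfrc matches lie in exon 19, the last exon of the gene, and the 3 others in the first exon of their transcripts.

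Gene counts summed to between 13185351 and 52975732 reads in a library. Levels are given in TPM, computed here as reads per base over the exons that the authors list for a gene, scaled to the same sum in each library. They give a gene's level relative to other RNA of the same fraction, and not its amount per cell. The study estimated unlike amounts of mRNA in the fractions, least in the cytosol, and no such factor was applied here. Stem cell markers were present in whole cells, with Pou5f1 between 1066 and 2267 TPM. The summed level of 4 fibroblast markers was 1.88 to 13.7 TPM. Most of it was Thy1, at 1.80 to 13.2 TPM with a median of 8.30, while Col1a1 had a median of 0.195 and Col3a1 and Acta2 a median of 0. Primitive endoderm markers summed to 1.42 to 5.25 TPM. The summed level of 6 endoplasmic reticulum and mitochondrial markers was 36315 to 132520 TPM in the membrane fraction and 287 to 1595 TPM in the cytosol. It was 6770 to 19656 TPM in the nucleus. Nuclear libraries thus held membrane marker RNA in amounts between those of the other 2 fractions. Most of this sum was mitochondrial, with membrane medians of 57068 TPM for mt-Co1 and 31651 TPM for mt-Cytb. The endoplasmic reticulum markers Hspa5, Hsp90b1, Pdia4 and Calr had medians of 426 to 1977 TPM in the membrane fraction. Their medians were 141 to 582 TPM in the nucleus and 23.0 to 122 TPM in the cytosol. In whole cells of replicate 6, the median share of new RNA over genes was 37.4% in the library labelled 60 min and 17.5% in the library labelled 120 min, against 22.0% and 38.8% in replicate 5. The order of these 2 libraries goes against their labels, and whole-cell shares at these times are therefore given with and without replicate 6.

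Tfrc mRNA was low in the cytosol and high in all other fractions. Its level in the cytosol was 17.5 TPM in the lowest library, 32.0 in the median and 67.2 in the highest. In the membrane fraction the lowest, median and highest levels were 76.4, 190.3 and 387.7 TPM. The groups did not overlap over the 16 libraries of each fraction. The nucleus held 64.5 to 330.5 TPM with a median of 165.6, and whole cells 73.5 to 409.6 TPM with a median of 200.2. Within 1 culture the membrane level was 3.83 to 8.77 times the cytosolic one, and it was above it in all 16 cultures.

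Replicates differed in the level of Tfrc more than the membrane, nuclear and whole-cell fractions did. The membrane median was 347.7 TPM in replicates 1 and 2, 143.7 in replicates 3 and 4 and 190.3 in replicates 5 and 6. In the cytosol the corresponding medians were 55.4, 20.1 and 32.0 TPM. The ratio of membrane to cytosol was alike in the 3 pairs, with medians of 5.92, 7.39 and 5.93.

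Slc11a2, the divalent metal transporter, was also lowest in the cytosol, at a lower level than the receptor. It ranged from 1.35 to 9.62 TPM in the cytosol with a median of 4.60, and from 20.6 to 58.0 TPM in the membrane fraction with a median of 33.6. All membrane libraries were above all cytosolic libraries. The cytosolic values rest on 62 to 516 reads per library. Its median was 19.6 TPM in the nucleus and 25.4 TPM in whole cells. Its ratios differed between replicate pairs, with membrane over cytosol medians of 6.96, 12.2 and 7.25 in replicates 1 and 2, 3 and 4, and 5 and 6. The nucleus over cytosol medians were 2.71, 11.5 and 3.12 in the same order, so that replicates 3 and 4 stood apart in both.

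In relative level ferritin mRNA stood the other way round, with the highest level in the cytosol. The heavy chain Fth1 reached 3057, 3349 and 4857 TPM in the lowest, median and highest cytosolic library, but 1371, 1612 and 2011 TPM in the membrane fraction. Its nuclear level was 523.8 to 1393 TPM, and no nuclear or membrane library reached the lowest cytosolic one. The light chain Ftl1 had 2166, 4052 and 4785 TPM in the cytosol in the same order. Its medians were 1359 TPM in the membrane fraction and 1114 TPM in the nucleus, and 1 membrane library, at 2279 TPM, overlapped the cytosolic range. In every culture both ferritins were lower in the membrane fraction than in the cytosol, at 0.341 to 0.658 times the cytosolic level for Fth1 and 0.259 to 0.523 times for Ftl1. By its median level Fth1 stood above 99.2 to 99.6% and Ftl1 above 99.2 to 99.7% of expressed genes in the 4 fractions.

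Counts of Ftl1 are uncertain because near-identical copies share its sequence and reads with several alignments were not counted. The processed pseudogene Ftl2-ps alone had 18.4 to 31.5% as many reads as Ftl1. No copy of Fth1 with a similar name exceeded 0.663% of the reads of Fth1.

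Relative levels of iron regulatory protein mRNA were more even across fractions. Median levels of Ireb2 were 121.5 TPM in nuclear, 94.8 in cytosolic, 47.8 in membrane and 80.9 in whole-cell libraries, and its nuclear range of 63.5 to 178.9 TPM overlapped the cytosolic range of 63.4 to 104.9 TPM. Aco1 had medians of 41.2, 29.4, 18.9 and 31.6 TPM in the same order, and its lowest nuclear library at 34.8 TPM was just above its highest cytosolic library at 34.2. Slc40a1, the exporter, was at the limit of detection with 2 to 46 reads per library and medians of 0.322 TPM in nuclear, 0.348 in cytosolic and 0.554 in membrane libraries.

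Whole-cell levels fell in the order Ftl1, Fth1, Tfrc, Ireb2, Aco1, Slc11a2, Slc40a1 by their medians. The ranges of Ftl1 and Fth1 overlapped, as did those of Tfrc with Ireb2, of Ireb2 with Aco1 and of Aco1 with Slc11a2. Slc40a1 was separated from all others.

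**Figure D1:**
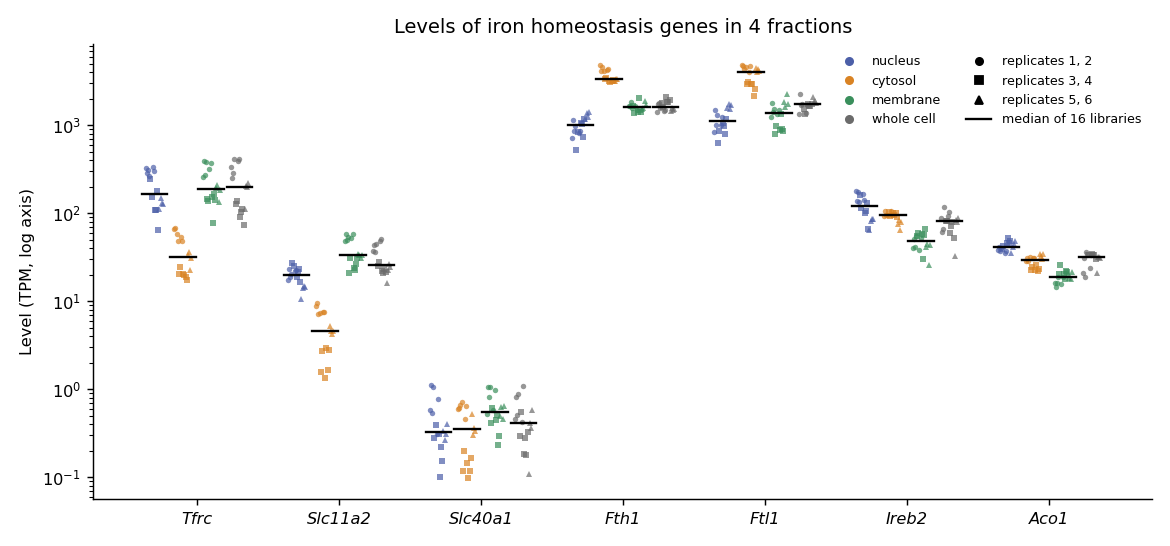
Level of the 7 genes (y axis, TPM, log scale) in nucleus, cytosol, membrane and whole cell, with 1 point per library, 16 libraries per fraction, symbols for replicate pairs and a bar at the median. Tfrc and Slc11a2 are lowest in the cytosol, with medians of 32.0 and 4.60 TPM, and Fth1 and Ftl1 highest there, with medians of 3349 and 4052 TPM.

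Relative levels were compared between fractions with edgeR's quasi-likelihood test over 18584 genes. Genes were called where the Benjamini-Hochberg adjusted p was under 0.05 and the log2 fold change beyond 1 in either direction. Between membrane and cytosol, 3 of the 7 members were called higher in the membrane fraction, where 20.2% of all genes tested were, and 1 was called lower, where 1.04% of all genes were. The log2 fold change of Slc11a2 was 3.43 ± 0.16 (SE), with an adjusted p of 3.54e-25. That of Tfrc was 3.02 ± 0.19 with an adjusted p of 1.55e-19. The third was Slc40a1 at 1.24 ± 0.25 with an adjusted p of 3.85e-05, which rests on the few reads given above and was 0.87, under the limit on the fold change, without TMM scaling. Leaving out replicate 4 also took it under this limit, at 0.95.

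Ftl1 was called lower in the membrane fraction with a log2 fold change of -1.03 ± 0.16 and an adjusted p of 1.63e-07. This lies at the limit on the fold change, and without replicate 3 it was -0.96 and not called. Fth1 had -0.75 ± 0.11 (adjusted p = 2.15e-07), Ireb2 -0.62 ± 0.10 (adjusted p = 5.55e-07) and Aco1 -0.21 ± 0.06 (adjusted p = 0.00288), all within the limit of 1. Without TMM scaling Fth1 reached -1.11 and was called. The median of all genes was -0.13 in this comparison and -0.48 without TMM, where 3341 genes were called higher and 1051 lower, against 3746 and 194 with it.

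Between nucleus and cytosol, 2 members were called higher in the nucleus, where 26.6% of all genes were, and 2 lower, where 14.5% were. Tfrc had a log2 fold change of 1.80 ± 0.18 (adjusted p = 1.42e-12) and Slc11a2 one of 1.40 ± 0.14 (adjusted p = 2.96e-12). The ferritins were called lower, Fth1 at -2.51 ± 0.12 (adjusted p = 5.11e-23) and Ftl1 at -2.31 ± 0.16 (adjusted p = 1.94e-17). Their relative scarcity in the nucleus held in each of the 11 alternative analyses. The sign for Ireb2 and Aco1 depended on the scaling, since without TMM their log2 fold changes were 0.06 and 0.26 against -0.28 and -0.07 with it. In TPM, which are not TMM-scaled, their nuclear level had a median of 1.31 and 1.38 times the cytosolic one. Of all genes, 4948 were called higher and 2689 lower, against 6172 and 1176 without TMM and 5762 and 1725 in DESeq2. Beside the higher nuclear level of Tfrc and Slc11a2 stand the membrane markers in nuclear libraries given above, mostly mitochondrial RNA by level. The part of membrane RNA in the nuclear level of Tfrc and Slc11a2 was not tested.

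The share of new to total RNA, the T2C count divided by the T count and by the conversion rate of the library, was then compared over labeling time. No background was subtracted and no library without 4sU was used here, so that low shares after short labeling can hold background. After 15 min the median over all genes was 2.80% in nuclear RNA, 1.62% in cytosolic RNA and 1.5% at the membrane. New Tfrc RNA appeared early in the nucleus. Its exon share there was 10.3 and 6.15% after 15 min in replicates 1 and 2, and 14.2, 13.6, 28.0 and 23.3% after 20 min in replicates 1 to 4. After 30 min it was 20.4 and 21.2%, and after 40 min 37.9 and 36.2%. The 60 min libraries of replicates 3 to 6 spread from 31.2 to 53.9%, and the 120 min libraries had 55.4 and 51.1%.

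In the cytosol the share of Tfrc began lower and ended higher than in the nucleus. After 15 min it was 2.46 and 2.59%, and after 20 min 4.92, 6.90, 12.3 and 10.9%. It was 12.3 and 11.2% after 30 min and 27.1 and 29.1% after 40 min. After 60 min it was 38.1 and 33.6% in replicates 3 and 4 and 56.1 and 59.1% in replicates 5 and 6, and after 120 min 68.2 and 73.7%. After 60 min in the cytosol the mean share of Tfrc, 46.7% (n = 4), stood above that of 91.3% of 12864 genes measured there.

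The membrane fraction lagged behind the cytosol in every culture. Its Tfrc share was 1.28 and 1.07% after 15 min, 1.51, 1.5, 3.12 and 2.36% after 20 min and 1.72 and 1.79% after 30 min. It reached 6.0 and 5.71% after 40 min, 12.7, 10.3, 13.9 and 12.6% after 60 min and 33.1 and 28.7% after 120 min. After 60 min the mean of 12.4% was near the median of 12.5% over 13590 genes. Whole cells of replicates 3, 4 and 5 had 16.3, 13.2 and 22.2% after 60 min and replicate 5 had 43.0% after 120 min, while replicate 6 had 42.6% in its 60 min and 19.6% in its 120 min library.

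**Figure D2:**
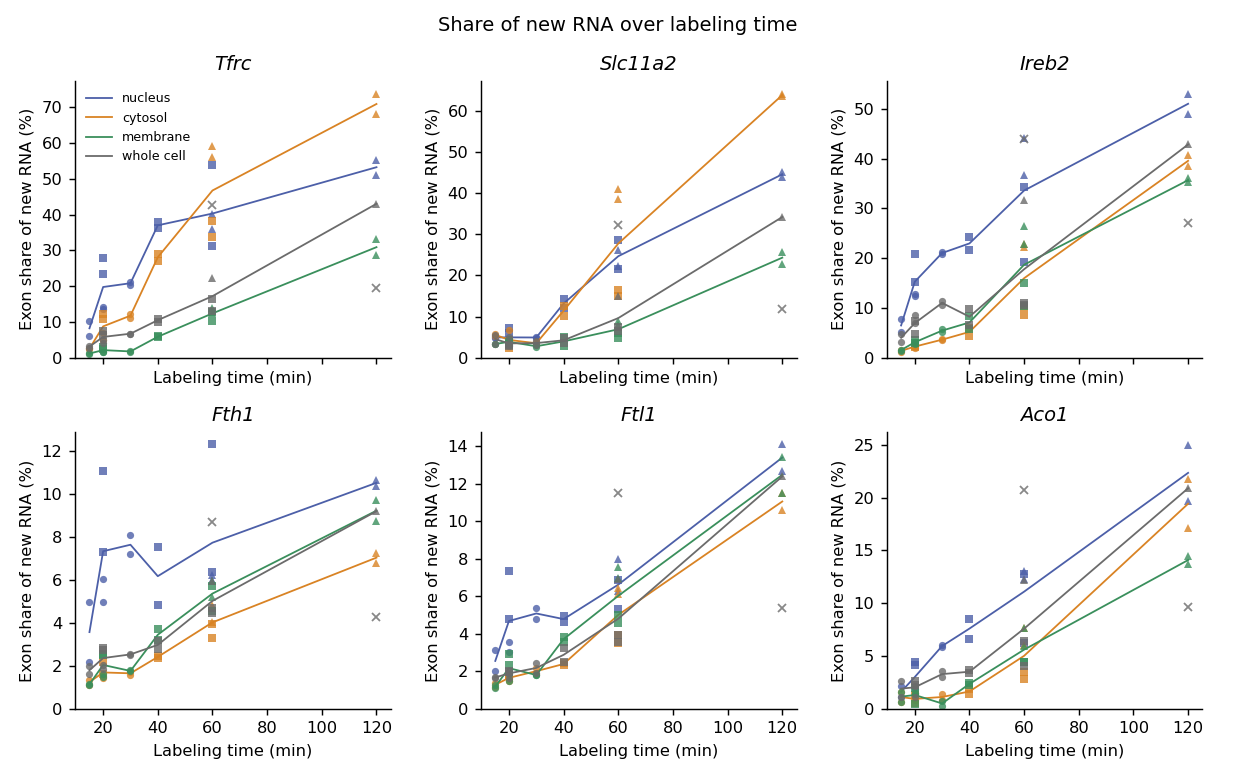
Exon share of new RNA (y axis, %) over labeling time (x axis, min) for 6 genes, with 1 point per library, lines through the means and crosses for the 2 whole-cell libraries of replicate 6, which the lines leave out. Tfrc reaches 68.2 and 73.7% in the cytosol and 33.1 and 28.7% in the membrane fraction after 120 min, and Fth1 7.26 and 6.79% and 9.68 and 8.73%.

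Ferritin mRNA had low shares of new RNA in all fractions after 60 and 120 min. Fth1 in the cytosol had shares of 1.36 and 1.13% after 15 min, 3.93, 3.28, 4.82 and 4.02% after 60 min and 7.26 and 6.79% after 120 min. Its nuclear share was 4.96 and 2.16%, 12.3, 6.37, 6.21 and 5.99%, and 10.4 and 10.6% at the same times. Its membrane share was 1.12 and 1.16%, 5.71, 4.56, 5.94 and 5.19%, and 9.68 and 8.73%. In the nucleus most of this was reached early, with Fth1 means of 7.32% after 20 min and 7.62% after 30 min. The nuclear means were 6.16% after 40 min and 7.72% after 60 min. No library of any fraction exceeded 12.3% new Fth1 RNA.

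Ftl1 behaved alike, with cytosolic shares of 1.37 and 1.19% after 15 min, 3.95, 3.52, 6.46 and 6.10% after 60 min and 11.5 and 10.6% after 120 min. In the nucleus its shares at these times were 3.11 and 1.99%, 6.87, 5.35, 7.99 and 6.28%, and 14.1 and 12.7%. Its membrane shares were 1.27 and 1.09%, 4.99, 4.58, 7.55 and 6.98%, and 13.4 and 11.5%. In the nucleus after 60 min, 4.43% of 13914 genes had a lower mean share than Fth1 and 2.82% a lower one than Ftl1. After 15 min these were 61.1% and 45.7% of 14582 genes.

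The rule that chose these genes names the contrast between Tfrc and the ferritins, and it was tested within libraries as the difference of log2(share + 0.01), with an exact two-sided permutation test by sign flips over 16 libraries per fraction. In the cytosol Tfrc exceeded Fth1 by 2.40 ± 0.94 (SD) and Ftl1 by 2.25 ± 0.84, and it was above both in 16 of 16 libraries. In the nucleus the differences were 1.78 ± 0.58 and 2.05 ± 0.45, again in 16 of 16 libraries. In whole cells they were 1.34 ± 0.51 and 1.37 ± 0.40 in 16 of 16 libraries, and 1.24 and 1.32 without replicate 6. For these 6 comparisons the exact permutation p was 3.05e-05, the smallest that 16 libraries allow, and the p adjusted over the 8 comparisons was 4.07e-05. The 16 libraries come from 6 replicates, each sampled at more than 1 time, and are not all independent. With 1 mean per replicate, the adjusted p of the exact permutation test stayed under 0.05 in these 6 comparisons. In each of them all means share a sign, which gives the smallest p that 6 values allow, so this says only that Tfrc was higher in every replicate.

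In the membrane fraction the gap was small and depended on time. Tfrc exceeded Fth1 by 0.56 ± 0.62 in 12 of 16 libraries (exact permutation test, adjusted p = 0.00321) and Ftl1 by 0.45 ± 0.53 in 11 of 16 (exact permutation test, adjusted p = 0.00574). Within replicates 1 and 2, labeled for up to 30 min, the mean differences were -0.0047 and -0.04, with Tfrc above Fth1 in 3 of 6 libraries and above Ftl1 in 2 of 6. Within replicates 3 and 4 they were 0.58 and 0.56, and within replicates 5 and 6 1.38 and 1.01 in 4 of 4 libraries each. With 1 mean per replicate, 6 values, the adjusted p of the exact permutation test was 0.107 and 0.125.

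In the other fractions the gap was present within every pair. The cytosolic difference between Tfrc and Fth1 was 1.46 in replicates 1 and 2, 2.74 in replicates 3 and 4 and 3.30 in replicates 5 and 6. As a ratio of shares, Tfrc was 1.82 to 2.3 times Fth1 in the cytosol after 15 min, 11.1 to 12.3 times after 40 min and 9.39 to 10.9 times after 120 min. Against Ftl1 it was 1.79 to 2.18, 11.1 to 12.4 and 5.93 to 6.94 times. In the membrane fraction the ratio to Fth1 was 0.916 to 1.14 after 15 min and 3.28 to 3.42 after 120 min. The shares after 15 min were low, beside medians over all genes of 1.62% in the cytosol and 1.5% at the membrane. They hold background that was not subtracted, and its part in the change of these ratios with time was not tested.

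**Figure D3:**
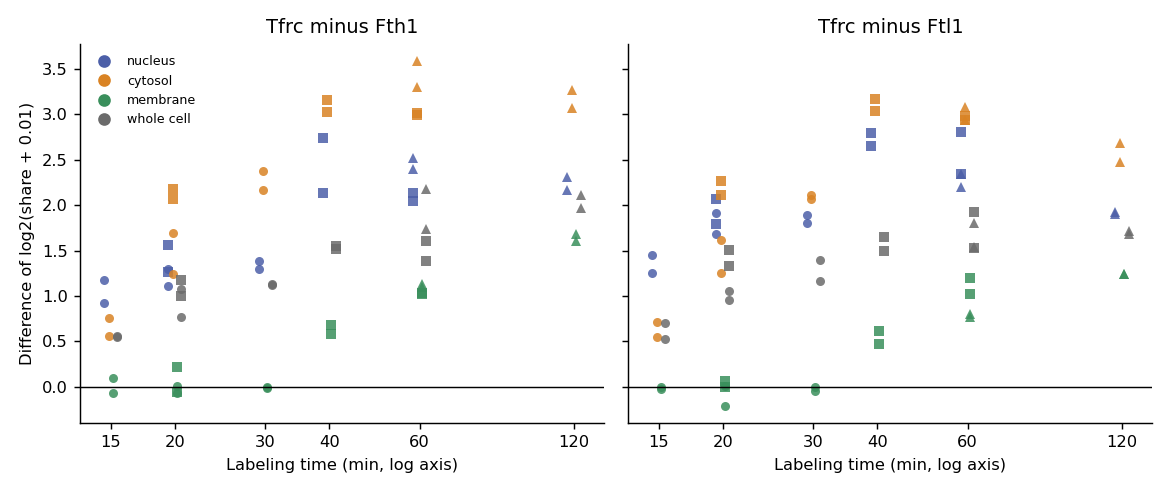
Difference of log2(share + 0.01) between Tfrc and each ferritin (y axis) in each of 64 libraries over labeling time (x axis, min, log scale), colored by fraction, with symbols for replicate pairs as in the plot of levels. Cytosolic, nuclear and whole-cell libraries are all above 0, and membrane libraries of replicates 1 and 2 lie around 0.

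Slc11a2 had a pattern with features of Tfrc after longer labeling. Its cytosolic share was 5.27 and 5.88% after 15 min and lay between 2.42 and 6.72% after 20 min, so that no order in time can be read from these early values. It was 15.0, 16.5, 41.0 and 38.6% after 60 min and 64.2 and 63.6% after 120 min. At the membrane it was 4.72, 6.12, 8.97 and 7.87% after 60 min and 25.8 and 22.8% after 120 min, below the cytosol in all of these cultures.

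The iron regulatory proteins differed from each other. Ireb2 had cytosolic shares of 1.61 and 1.16% after 15 min, 10.1, 8.66, 22.3 and 22.9% after 60 min and 38.4 and 40.7% after 120 min. Its nuclear shares were 7.74 and 5.22%, 34.3, 19.3, 44.1 and 36.6%, and 53.0 and 49.0%. Aco1 stayed lower, with cytosolic shares of 1.55 and 0.675% after 15 min, 2.86, 3.53, 7.63 and 6.05% after 60 min and 21.7 and 17.1% after 120 min. Its nuclear share was 25.0 and 19.7% after 120 min. Slc40a1 did not have 400 T counts in every library, and its shares are not given.

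For 6 members the share in fractions was tested with limma on log2(share + 0.01) over 11646 genes and 48 libraries, averaged over times. In the membrane fraction 2 of the 6 were called lower than in the cytosol, where 9.49% of all genes were, and none was called higher, where 2.56% of all genes were. Both were among the genes called higher in the membrane fraction by level. Tfrc had a log2 difference of -1.60 ± 0.13 (adjusted p = 2.32e-11) and Slc11a2 one of -0.90 ± 0.14 (adjusted p = 1.14e-05). Tfrc was lower in the membrane fraction than in the cytosol in 16 of 16 cultures. Fth1 at 0.20 ± 0.11, Ftl1 at 0.16 ± 0.11, Ireb2 at 0.23 ± 0.14 and Aco1 at -0.02 ± 0.15 did not pass, with adjusted p between 0.325 and 0.963.

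Against the cytosol, the nuclear share was called higher for 5 of 6 members and lower for none, where 79.5% and 1.4% of all genes were. Ireb2 led with a log2 difference of 1.60 ± 0.14 (adjusted p = 2.83e-11), followed by Fth1 at 1.09 ± 0.11 (adjusted p = 7.03e-10) and Aco1 at 0.99 ± 0.15 (adjusted p = 4.76e-07). Ftl1 had 0.68 ± 0.11 (adjusted p = 1.28e-06) and Tfrc 0.50 ± 0.13 (adjusted p = 0.000759), both under the median of 0.86 over all genes. Slc11a2 had 0.01 ± 0.14 and an adjusted p of 0.962.

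The mean over times conceals a change of sign for Tfrc. Its nuclear share was above its cytosolic share in 6 of 6 cultures of replicates 1 and 2, by 1.08 on the log2 scale in the mean, in 5 of 6 of replicates 3 and 4, by 0.55, and in 0 of 4 of replicates 5 and 6, where the mean was -0.50. Slc11a2 was also below its cytosolic share in the nuclei of all 4 cultures of replicates 5 and 6, with a mean of -0.60. Of the 1855 genes called higher in the membrane fraction by level, 43.7% had a nuclear share below the cytosolic one in all 4 of these cultures, against 11.4% of the 9720 other genes. Fth1, Ftl1, Ireb2 and Aco1 were higher in the nucleus in all 4. Nuclear libraries held between 0.516 and 1.82% mitochondrial reads, cytosolic ones 0.0313 to 0.254% and membrane ones 4.82 to 16.5%. The part of membrane RNA in the nuclear shares was not tested.

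Introns, which mark RNA that is not yet spliced, told the ferritins apart from the other members. Shares over introns are divided by a conversion rate that is an estimate over the whole library. They can exceed 100%, and the cause of this was not tested. After 15 min the nuclear introns of Fth1 had shares of 72.2 and 85.7% and those of Ftl1 93.8 and 95.9%. At that time the mean of Fth1 stood above 99.5% and that of Ftl1 above 99.9% of 12866 genes, whose median was 13.5%. Tfrc introns had 19.2 and 23.0% after 15 min, a mean above that of 72.6% of genes. The remaining members were closer to this median, with 17.9 and 15.9% for Slc11a2, 16.4 and 12.7% for Ireb2 and 11.9 and 14.9% for Aco1. After 60 min the intron shares of these 4 genes, Tfrc included, lay between 73.5% (Aco1, replicate 6) and 109% (Tfrc, replicate 5). Gene spans were 1941 bases for Ftl1 and 4501 for Fth1, against 23875 for Tfrc, 37175 for Slc11a2, 48742 for Ireb2 and 55258 for Aco1. They rose as the mean intron shares after 15 min fell, where the values of Ireb2 overlapped those of Slc11a2 and Aco1. After 60 min the means did not keep this order, at 119% for Fth1 and 112% for Ftl1. A part of gene span in the intron shares was not tested.

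**Figure D4:**
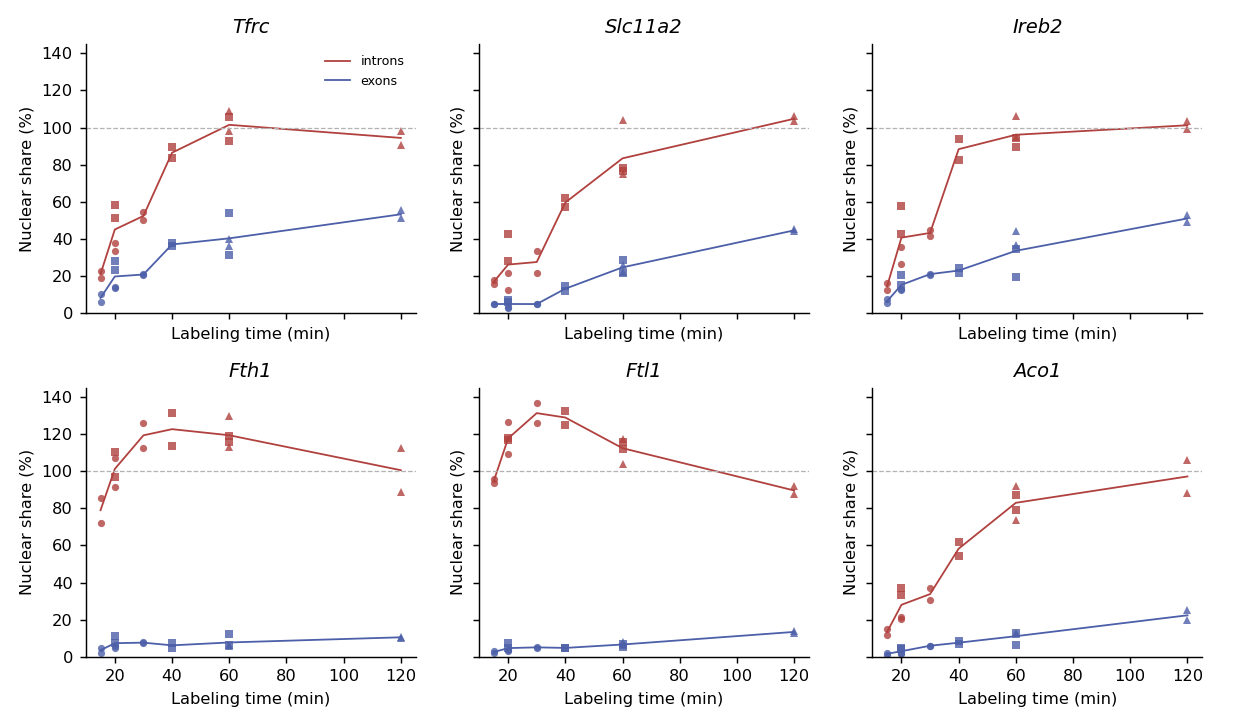
Nuclear share of new RNA (y axis, %) in introns and exons of 6 genes over labeling time (x axis, min), with 1 point per nuclear library and lines through the means. Introns of Fth1 and Ftl1 begin at 72.2 to 95.9% after 15 min while their exons have at most 4.96%, and Tfrc introns begin at 19.2 and 23.0%.

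In the nucleus the intron share was higher than the exon share for 6 of 6 members in limma's test, as it was for 97.4% of 10380 genes, and 0.135% were lower. The size of this gap separated the members. Ftl1 had the widest at 4.12 ± 0.10 on the log2 scale (adjusted p = 2.29e-21), then Fth1 at 3.79 ± 0.12 (adjusted p = 9.13e-20) and Aco1 at 2.57 ± 0.14 (adjusted p = 1.32e-15). Tfrc had the narrowest at 1.19 ± 0.12 (adjusted p = 4.42e-10), with Ireb2 at 1.3 ± 0.12 and Slc11a2 at 1.83 ± 0.14, against a median of 1.81 over all genes.

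The last exon of Tfrc, which spans 2701 bases and holds the 4 element matches shown above, was compared with the exons upstream of it. It took up 70.3 to 88.8% of T counts of the gene in nuclear libraries and 73.2 to 87.7% in cytosolic ones. In the nucleus the last exon had the higher share of new RNA in 14 of 16 libraries, with 7.47 to 11.9% against 1.67 to 2.71% upstream after 15 min. The study describes such a labeling delay away from the 3′ end across genes in nuclear RNA, above all after short labeling. Its part in the values of Tfrc was not tested. In the cytosol the order turned with time. The last exon was higher in 8 of 8 libraries of up to 30 min, and the upstream exons were higher in 8 of 8 libraries of 40 min and more. After 120 min the cytosolic shares were 65.7 and 69.6% in the last exon and 85.3 and 96.8% upstream. Time and replicate pair cannot be told apart in this change of order, except that both orders occurred within replicates 3 and 4. At the membrane the 2 parts were close, with 33.5% against 29.5% upstream in replicate 5 and 28.3% against 29.9% in replicate 6 after 120 min.

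The last exon of Ireb2 was higher than the upstream exons in all 64 libraries, with 6.92 to 9.68% against 0.823 to 1.04% in the nucleus after 15 min and 50.4 to 54.2% against 45.0 to 49.3% after 120 min. For Slc11a2 it was also higher in all 64 libraries. For Aco1 it was higher in all nuclear and whole-cell libraries, and in 10 of 16 libraries each of cytosol and membrane. No test was made on these exon values.

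**Figure D5:**
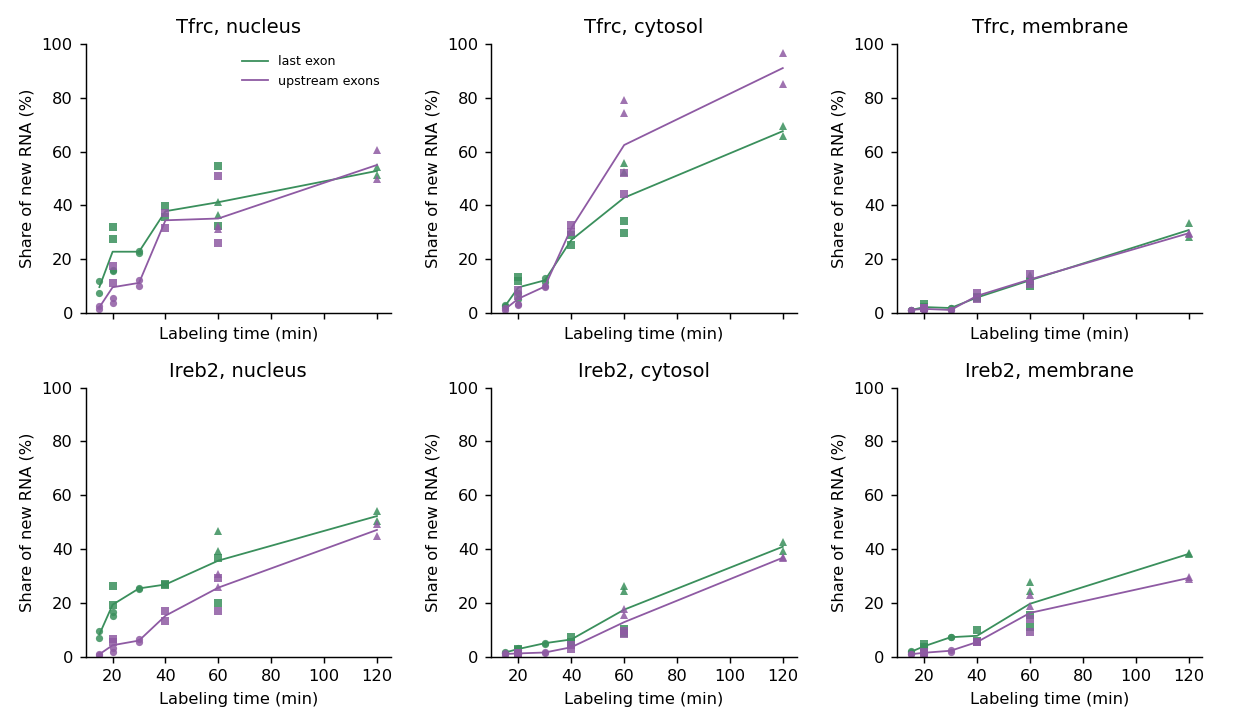
Share of new RNA (y axis, %) in the last exon and in the exons upstream of it for Tfrc and Ireb2, over labeling time (x axis, min) in nucleus, cytosol and membrane, with 1 point per library and lines through the means. For Tfrc in the cytosol the upstream exons are below the last exon up to 30 min and above it from 40 min, reaching 85.3 and 96.8% after 120 min.

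Other genes of iron metabolism, 57 in a list grouped by role, gave the background to these members. Of the 52 tested for level, 16 were called higher in the membrane fraction and 0 lower by edgeR's quasi-likelihood test, beside 20.2% and 1.04% of all genes. All 6 genes of the transferrin cycle and all 7 tested transporters of iron or heme were among them, with median log2 fold changes of 3.03 and 3.42. None of 12 heme enzymes and none of 4 genes of storage was called. The highest values belonged to Steap3, the endosomal ferrireductase, at 4.53 ± 0.16, Trf, transferrin itself, at 4.11 ± 0.37, and Slc46a1, a folate and heme carrier, at 3.95 ± 0.14. The lowest were those of Epas1, a hypoxia-inducible factor, at -0.91 ± 0.15, Pcbp2, an RNA-binding protein that also delivers iron, at -0.79 ± 0.09, and Hif1a at -0.65 ± 0.12, none past the limit of 1. Epas1 passed it without TMM, without a filter on low counts and without replicate 3 or 4 (-1.27, -1.0, -1.02 and -1.15), and Pcbp2 without TMM and without replicate 4 (-1.14 and -1.02).

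In the nucleus 14 of the 52 were called higher and 10 lower than in the cytosol, where 26.6% and 14.5% of all genes were. Without TMM 4 were called lower, without replicate 1 it was 5 and without replicate 3 it was 3. Of 44 genes of the list tested for the share of new RNA, 4 were called lower and 1 higher in the membrane fraction than in the cytosol, beside 9.49% and 2.56% of all genes. In the nucleus 34 were called higher and 0 lower, beside 79.5% and 1.4% of all genes. The 4 called lower in the membrane fraction became 2 with a pseudocount of 0.001, with a minimum of 2000 T counts and without replicate 2. In the nuclear test of introns against exons 43 of 43 were higher, as were 97.4% of all genes.

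The share of new RNA in whole cells after 60 min was measured for 47 genes of the list, with a median of 16.3%, or 11.9% without replicate 6. The 3 highest means were those of Nfe2l2, a stress-response transcription factor, at 45.3% ± 23.8 (SD, n = 4), of Hfe2 at 40.8% ± 37.2, and of the heme exporter Flvcr1 at 33.6% ± 20.4. Without replicate 6 they were 34.2, 25.1 and 24.9%. The lowest were those of the heme enzyme Urod at 4.39% ± 4.74 and of Trf at 4.41% ± 3.73, or 2.05 and 2.88% without replicate 6. Beside these the members' means were 23.6% for Tfrc, 24.3% for Ireb2, 15.3% for Slc11a2, 10.9% for Aco1, 6.48% for Ftl1 and 5.92% for Fth1. Without replicate 6 they were 17.2, 17.8, 9.63, 7.59, 4.81 and 5.01%.

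To find genes with the most similar pattern, 10 values per gene were compared over 10525 protein-coding genes, the level ratios of membrane and nucleus to cytosol and the shares after 20 and 60 min in the 4 fractions, whole cells of replicate 6 included. The nearest to Tfrc by Euclidean distance on the log2 scale were Slc23a2, a vitamin C transporter, at 0.67, Slc20a1, a phosphate transporter, at 0.70, and Derl2, a protein of endoplasmic reticulum quality control, at 0.85, where the median distance was 5.09. After 60 min their cytosolic shares were 57.1, 45.1 and 42.8%. The nearest to Fth1 were the ribosomal protein genes Rps2 at 0.72 and Rpsa at 0.74, followed by Ftl1 at 0.75, with a median of 4.43. Among the members Slc11a2 was the nearest to Tfrc, at 2.72, and Fth1 and Ftl1 were at 7.64 and 7.75.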

How the data were processed

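Per the labels and the study's methods, the authors mapped poly(A)-selected RNA to mm10 (GRCm38) with STAR 2.7.6, and their deposited gene counts from HTSeq 0.11.1 are not normalized. For exons, introns and whole genes, T positions and T2C conversions were likewise deposited as counts, after variants seen in unlabeled libraries had been removed. The authors' conversion rate is a fraction fitted as a mixture of binomials, and lay between 2.07 and 8.29% in the libraries used. Their share of new RNA is a deposited ratio, T2C over T over this rate, which differed from a recomputed one by at most 2.4e-13. Reads with several alignments (a median of 25.4% per library), outside genes (9.42%) or on several genes (1.13%) were left out of library sizes and tests.

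The members and gene lists were chosen with earlier results of these data known. Levels were tested with edgeR 4.0.16 (R 4.3.3, filterByExpr, TMM, 24 groups of fraction and time, mean contrast over 6 times) and DESeq2 1.42.0 as an alternative, on 64 libraries. Shares were tested with limma 3.58.1 on log2(share + 0.01) where no library of a gene was under 400 T counts. Both scripts were tested on simulated data, where edgeR recovered 200 of 200 genes changed by a factor of 4 in the membrane among 18584 and limma, with 28 false calls, 188 of 200 with a doubled membrane share among 11646. Simulated libraries were drawn independently and few genes were changed, so these checks do not bear on the pairing of fractions or on the scaling. Python 3.11.15 and scipy 1.17.1 served for exact permutation tests. Benjamini-Hochberg adjustment ran over all genes tested.

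Fractions of 1 replicate and time come from the same cultures by the protocol, which pairs them. Over 9087 genes, deviations from group means correlated between cytosol and membrane of 1 culture at 0.533 to 0.799 and between nucleus and cytosol at -0.136 to 0.332. Named genes of the wider iron list were the 3 highest and 3 lowest by membrane over cytosol level and by whole-cell share after 60 min, and for Tfrc and Fth1 the 3 nearest genes by pattern. 1 gene that this rule names is not reported here. Whole-cell shares after 60 min without single replicates were added after seeing the data. Reads carry no molecular identifiers. p-values of edgeR and limma measure the spread between libraries of 1 fraction and time, from independently passaged cultures of 1 cell line. The main fits used no block. They treated fractions of 1 culture, and intron and exon values of 1 library, as independent. The permutation tests measure the spread of within-library differences between libraries.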

Additional observations from a re-analysis of the deposited data

Results flagged for a closer look

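In 118 groups of 4 libraries the lowest or highest value was set against the spread of the others by Dixon's ratio, which marks about 1 in 20 groups by chance, or 5.9 here, and 3 groups were marked. The nuclear exon share of Fth1 in the 60 min library of replicate 3 was 12.3%, above the 5.99 to 6.37% of replicates 4 to 6. The nuclear exon share of Aco1 in the 60 min library of replicate 4 was 6.26%, below the 12.3 to 13.0% of the others. The nuclear intron share of Slc11a2 in the 60 min library of replicate 5 was 104%, above the 74.9 to 78.0% of the others.

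The nuclear minus cytosolic share of Tfrc was above 0 in all cultures of replicates 1 and 2 and below 0 in all cultures of replicates 5 and 6, and the means, 1.08 and -0.50 on the log2 scale, differed by 1.58. This difference was not tested. The first pair was labeled for up to 30 min and the other for 60 and 120 min, so that time, dose and replicate pair cannot be told apart.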

How the results depend on the processing

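Of 380 values for the members under alternatives, 360 kept their direction and side of the threshold. The directions that turned belonged to differences near 0. For the nuclear against cytosolic level these were Aco1 in DESeq2 (0.133), without TMM (0.26) and without a filter (0.0759), and Ireb2 without TMM (0.0593). Over left-out replicates Aco1 ranged from -0.0655 to 0.241, Ireb2 from -0.277 to 0.0652 and Slc40a1 from -0.535 to 0.081, above 0 without replicates 1, 3 and 5, without replicate 3 and without replicate 1. For shares they were Aco1 in the membrane fraction with the replicate block (0.0317) and with 1 conversion rate per culture (0.0379), and Slc11a2 in the nucleus with a pseudocount of 0.05 (-0.0253). Over left-out replicates these shares ranged from -0.199 to 0.142 and from -0.0907 to 0.0812. Genes lower in the membrane fraction by level numbered 1051 without TMM, 396 without a filter and 191 to 490 over left-out replicates. Genes lower in the nucleus numbered 1725 in DESeq2, 1176 without TMM and 1188 to 2842 over left-out replicates, with 1429 without replicate 1 and the lowest without replicate 3. Genes with a higher membrane share numbered 449 with all 72 libraries, 551 with 1 conversion rate per culture and 90 to 261 over left-out replicates, lowest without replicate 2. Genes with a lower nuclear share numbered 56 with 1 conversion rate per culture, and genes with a lower intron share 24 and 9 with minimums of 100 and 2000 T counts. With 1 mean per replicate, Tfrc exceeded Fth1 by 0.65 and Ftl1 by 0.51 in the membrane fraction, past the threshold in neither (exact permutation test, adjusted p = 0.107 and 0.125). With the replicate block, which pairs fractions of 1 culture, Tfrc had log2 differences of 2.99 and 1.79 in level and -1.62 and 0.49 in share for membrane and nucleus against cytosol, and the block changed no member's call. The causes were not tested. Depth limits Slc40a1, with 2 to 46 reads, and cytosolic Slc11a2.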
